A study of Mus musculus with 4 samples.

Results

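RNA of 10 plasma proteins of the acute-phase response was examined in mouse liver: the serum amyloid A genes Saa1, Saa2 and Saa3, the orosomucoid genes Orm1 and Orm2, haptoglobin (Hp), hemopexin (Hpx), lipocalin 2 (Lcn2), serum amyloid P component (Apcs) and C-reactive protein (Crp). The genes were chosen by symbol, and all 10 were found among the 13903 genes of the deposited table. Bulk mRNA-seq was carried out on livers of OGT-floxed mice on a C57BL/6J background that were fed the CDE diet, which lacks choline, contains ethionine and injures the liver. The virus given was AAV8-TBG-CRE for the OGT-KO label and AAV8-TBG-eGFP for the control label. Livers were collected either with No Recovery from the diet or after a 7 Day Recovery. The TBG promoter drives Cre in hepatocytes, so the other cells of a liver labelled OGT-KO keep Ogt, the gene of O-GlcNAc transferase. The floxed allele, the viral capsid and the diet were shared by all groups, and no group fed a normal diet was analysed here. Each of the 4 conditions was 1 library of RNA pooled from 3 mice, the sources used here do not give the mice's age at collection, and the libraries compare label against label at each time and time against time within each label. With 1 library per condition there was no replicate check, and no difference below has a test across replicates.

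The acute-phase response is the change in plasma protein production that follows injury or infection. Cytokines such as interleukin-6 and interleukin-1 reach hepatocytes, where STAT3, NF-kappaB and C/EBP factors raise transcription of positive acute-phase genes while that of negative ones, such as albumin and transthyretin, declines. In mice serum amyloid A and Apcs respond strongly, whereas Crp, a major reactant in humans, responds little.

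The promoters of the members whose levels differed most between the labels (Saa1, Saa2, Crp and Lcn2) and of Apcs, whose order of levels turned around between the times, are shown first. Each runs 5′ to 3′ from 250 bases before to 50 bases after the start of the gene in RefSeq (GRCm38.p6), and 8 of the 10 members were matched to that collection. Motifs were searched as letters on both strands, with TTGCNNAA for C/EBP, TTCNNNGAA for STAT and TATAAA for the TATA box. The kappaB motif was a pattern of 10 bases that begins GGGR and ends YYCC, where R is A or G and Y is C or T. Capitals mark their matches below. Saa1 lies on the minus strand at chr7:46742931-46743230, Saa2 on the plus strand at chr7:46751583-46751882, Crp on the plus strand at chr1:172697806-172698105, Lcn2 on the minus strand at chr2:32387690-32387989 and Apcs on the minus strand at chr1:172895005-172895304.
Saa1: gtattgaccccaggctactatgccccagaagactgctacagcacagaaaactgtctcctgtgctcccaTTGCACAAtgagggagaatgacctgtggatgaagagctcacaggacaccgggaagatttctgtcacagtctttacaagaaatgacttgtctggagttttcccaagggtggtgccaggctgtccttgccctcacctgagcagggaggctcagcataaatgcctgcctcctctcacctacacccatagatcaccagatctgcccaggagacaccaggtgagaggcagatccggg
Saa2: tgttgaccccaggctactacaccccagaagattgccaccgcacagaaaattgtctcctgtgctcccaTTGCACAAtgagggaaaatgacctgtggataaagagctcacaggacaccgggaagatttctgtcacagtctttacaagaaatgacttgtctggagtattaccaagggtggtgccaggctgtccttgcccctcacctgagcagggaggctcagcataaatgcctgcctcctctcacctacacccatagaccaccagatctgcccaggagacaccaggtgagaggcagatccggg
Crp: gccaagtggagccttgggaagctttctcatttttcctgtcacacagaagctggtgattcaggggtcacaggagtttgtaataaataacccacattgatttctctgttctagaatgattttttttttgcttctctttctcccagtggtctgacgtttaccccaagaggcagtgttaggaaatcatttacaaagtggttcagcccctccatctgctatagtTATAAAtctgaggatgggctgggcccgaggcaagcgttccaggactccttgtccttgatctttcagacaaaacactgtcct
Lcn2: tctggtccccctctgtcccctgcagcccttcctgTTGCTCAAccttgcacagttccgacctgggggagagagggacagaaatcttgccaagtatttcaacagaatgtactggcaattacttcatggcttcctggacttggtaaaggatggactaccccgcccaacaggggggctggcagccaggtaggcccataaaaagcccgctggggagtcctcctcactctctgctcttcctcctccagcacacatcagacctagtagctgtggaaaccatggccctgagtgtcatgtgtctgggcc
Apcs: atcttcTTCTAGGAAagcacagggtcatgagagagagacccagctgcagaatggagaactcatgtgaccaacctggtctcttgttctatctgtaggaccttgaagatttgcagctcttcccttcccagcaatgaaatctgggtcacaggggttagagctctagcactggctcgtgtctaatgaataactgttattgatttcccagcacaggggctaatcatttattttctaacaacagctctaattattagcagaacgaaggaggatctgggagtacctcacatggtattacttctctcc

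The promoters of Saa1 and Saa2 were 95.4% identical over 301 aligned positions, and both held TTGCACAA about as far from the start, at -182 to -175 and at -183 to -176. The C/EBP letters were found in 6 of the 8 matched members (Saa1, Saa2, Saa3, Orm2, Hpx and Lcn2) and in 10.8% of 32851 promoters of the same length. Crp and Apcs were the matched members without them. The STAT letters were found in Apcs, at -244 to -236, and in 8.30% of all promoters. The TATA box letters were found in Crp, at -31 to -26, and in Orm2, at -33 to -28, against 13.6% of all promoters. The kappaB letters were found in none of the 8 members and in 8.46% of all promoters. These matches describe letters in a short window and are not sites of binding.

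The deposited values were CPM, in which the reads of each gene are divided so that every library sums to 1000000, and the libraries held between 19972699 and 22866431 reads on listed genes. Ogt was listed at 64.7 CPM in the library labelled control and 55.3 in the No Recovery library labelled OGT-KO, and at 55.7 and 77.7 after 7 days. Its level after 7 days thus goes against the label in the deposited scaling, by 0.47 on the log2(CPM + 1) scale, and this turns to -0.20 with median-ratio scaling, while with no recovery Ogt differed by -0.22 and -0.93. The table gives 1 value per gene, so reads on floxed exons cannot be told from the rest. Hepatocyte markers were plentiful in every library, with a sum over 10 genes of 55386 to 84168 CPM, most of it Alb. At each time 9 of these 10 genes were lower under the OGT-KO label and 1 was higher. At least 2-fold lower were 3 with no recovery and 4 after 7 days, against 5.69% and 4.27% of the compared genes defined below. Markers of other liver cells were higher in both libraries labelled OGT-KO, by 21.5-fold and 21.0-fold for 6 bile duct and progenitor genes and by 13.3-fold and 23.8-fold for 8 stellate cell and fibroblast genes. Among the 8963 genes that averaged 10 CPM or more over the 4 libraries, the median gene was 0.51 higher under the OGT-KO label with no recovery and 0.48 higher after 7 days on the scale of log2(CPM + 1). In whole liver, fewer hepatocytes and less RNA per hepatocyte cannot be told apart. The part of the other cells in the differences below was not tested.

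**Figure D1:**
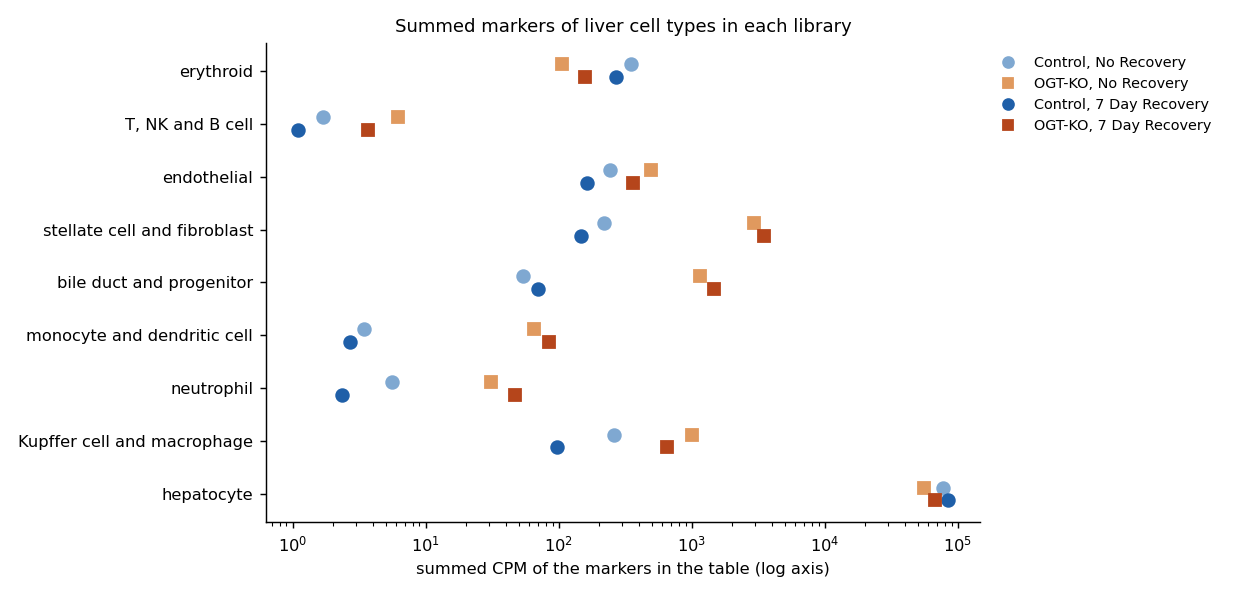
Summed CPM (log axis) of marker genes of 9 liver cell types in each of the 4 libraries; circles are libraries labelled control and squares libraries labelled OGT-KO. The squares lie to the right of the circles for macrophage, neutrophil, monocyte, duct, stellate and endothelial markers and to the left for hepatocyte and erythroid markers. In the libraries labelled control Alas2 made up 213 and 171 CPM of erythroid sums of 349 and 270 CPM. Of the 4 erythroid genes past the filter, 3 were higher under the OGT-KO label after 7 days, and none was with no recovery.

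The 10 members together took 1.09% of the reads of the library labelled control and 0.827% of those labelled OGT-KO with no recovery, and 1.16% and 0.775% after 7 days. Hp and Hpx made up most of these reads. Per kilobase of transcript, Hp and Hpx led in every library, with Hp at 3142 and Hpx at 3137 CPM per kilobase in the No Recovery library labelled control, whose counting intervals overlapped. Orm1 came next and then Saa1 in both libraries labelled control, at 587 CPM per kilobase for Saa1 with no recovery and 817 after 7 days. In both libraries labelled OGT-KO, Lcn2 stood directly after Orm1, at 532 and 444 CPM per kilobase, and Saa1 was below Orm2 and Apcs at 39.0 and 46.1. The intervals of Orm1 and Lcn2 with no recovery overlapped, as did those of Orm2 and Saa1 with no recovery and of Crp and Saa1 after 7 days. Saa3 was the lowest member in every library.

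**Figure D2:**
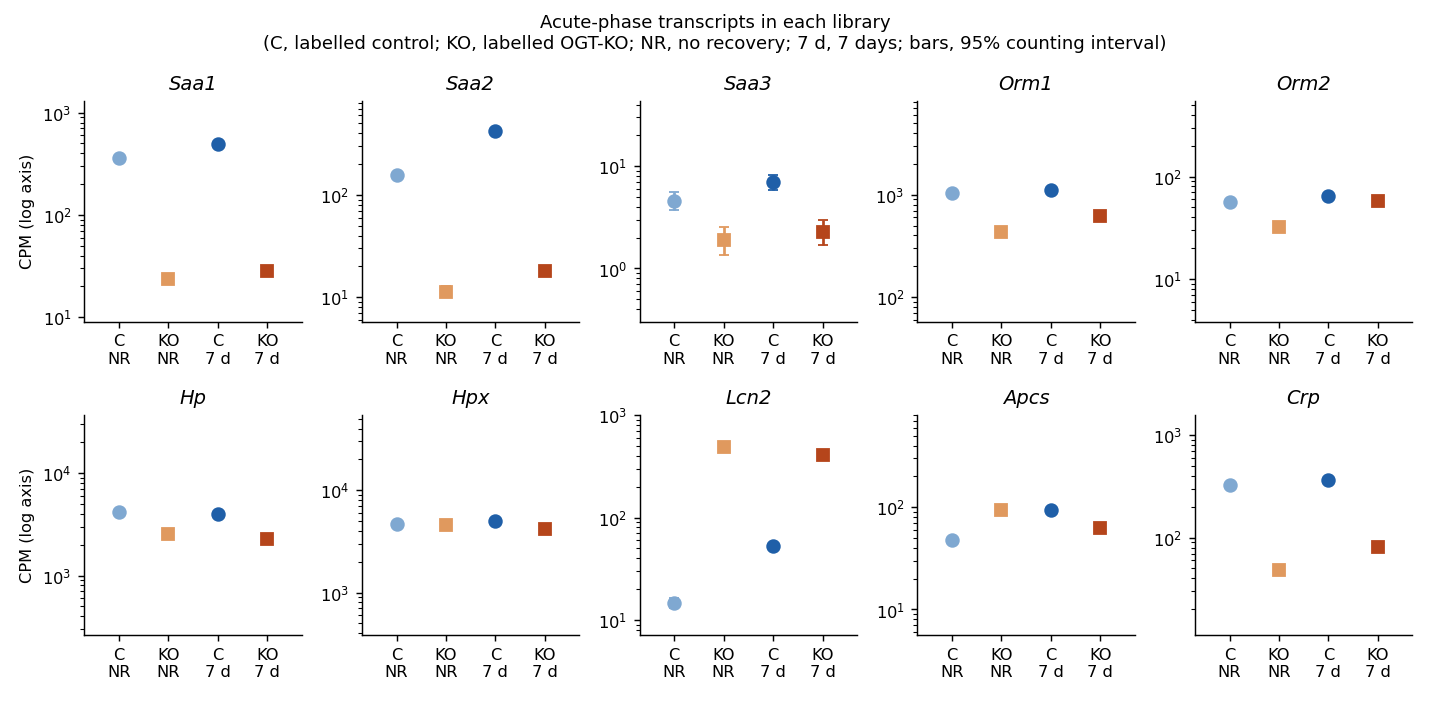
CPM (log axis, each panel spanning the same number of folds) of each member in the 4 libraries, with 95% counting intervals that are mostly smaller than the symbols. Saa1, Saa2 and Crp sit far lower, and Lcn2 far higher, in the libraries labelled OGT-KO (squares) than in those labelled control (circles).

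Saa1 and Saa2 encode the circulating serum amyloid A proteins, apolipoproteins of high-density lipoprotein made by hepatocytes. In the GENCODE M21 annotation (GRCm38), Saa1 (ENSMUSG00000074115) has 4 exons on the minus strand at chr7:46740497-46742980 and Saa2 (ENSMUSG00000057465) 4 exons on the plus strand at chr7:46751790-46754313. Saa1 was at 358 CPM in the library labelled control and 23.8 in that labelled OGT-KO with no recovery, and at 498 and 28.1 after 7 days. Saa2 was at 158 and 11.3 CPM with no recovery, and at 425 and 18.1 after 7 days. Both genes were low in both libraries labelled OGT-KO. Saa1 was 15.1-fold lower under the OGT-KO label with no recovery (95% exact counting interval 13.8 to 16.5) and 17.7-fold lower after 7 days (16.3 to 19.2). Saa2 was 13.9-fold lower with no recovery (12.3 to 15.8) and 23.5-fold lower after 7 days (21.3 to 26.1). At most 0.424% of the compared genes lay below either of them in either comparison.

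The pair lies on opposite strands of chromosome 7, with 8810 bases between the annotated gene starts, and their transcripts are 87.3% identical. Of the windows of 50 bases in the Saa1 transcript, 13.2% also occurred in Saa2, so reads there could be counted to either gene, and the sum of both genes is safer than either value. The sum was 14.7-fold lower under the OGT-KO label with no recovery (13.7 to 15.8) and 20.0-fold lower after 7 days (18.8 to 21.3). Saa2 took 30.6% of the reads of the pair in the No Recovery library labelled control (29.7% to 31.5%) and 46.1% after 7 days (45.4% to 46.8%). Under the OGT-KO label its share was 32.3% (29.1% to 35.7%) and 39.2% (36.2% to 42.2%). The Saa2 share was thus higher after 7 days under both labels, and its intervals for the labels overlapped with no recovery but not after 7 days.

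Saa3, an amyloid A gene expressed mainly outside hepatocytes (ENSMUSG00000040026, chr7:46711998-46715700, minus strand), was scarce. It had 98 reads (4.61 CPM) in the library labelled control and 43 (1.88 CPM) in that labelled OGT-KO with no recovery, and 140 (7.01 CPM) and 51 (2.26 CPM) after 7 days. Its mean was under 10 CPM, and it was the 1 member that did not pass the filter on low values. The ratio was 2.45-fold lower under the OGT-KO label with no recovery (1.70 to 3.60) and 3.10-fold lower after 7 days (2.24 to 4.36). Macrophage markers, 10 of 10 of them, were higher under the OGT-KO label, from summed levels of 259 and 96.5 CPM to 998 and 652 CPM, while Saa3 was lower.

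Orm1 and Orm2 encode orosomucoid, or alpha-1-acid glycoprotein, a plasma carrier of basic and lipophilic molecules. Both have 6 exons on the plus strand of chromosome 4, Orm1 (ENSMUSG00000039196) at chr4:63344560-63348163 and Orm2 (ENSMUSG00000061540) at chr4:63362449-63365878. Orm1 was at 1034 CPM in the library labelled control and 428 in that labelled OGT-KO with no recovery, and at 1115 and 615 after 7 days. Orm2 was at 56.6 and 32.3 CPM with no recovery, and at 65.1 and 57.9 after 7 days. Both were lower under the OGT-KO label at both times, Orm1 by 2.42-fold (2.36 to 2.47) and 1.81-fold (1.78 to 1.85) and Orm2 by 1.76-fold (1.60 to 1.93) and 1.13-fold (1.04 to 1.22). Of these, the Orm1 difference with no recovery passed 2-fold on the log2(CPM + 1) scale. The transcripts are 91.0% identical and 20.4% of the windows of Orm1 also occurred in Orm2, so the split between the genes is uncertain. Orm3, the third gene of the cluster, was higher under the OGT-KO label by 1.14 with no recovery and 1.67 after 7 days on the log2 scale. It was listed at 16.4 CPM or less in every library, and with it the family sum was still 2.30-fold lower (2.25 to 2.36) and 1.72-fold lower (1.69 to 1.76).

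Hp and Hpx encode scavengers of free hemoglobin and free heme. Hp (ENSMUSG00000031722) has 5 exons at chr8:109575128-109579172 and Hpx (ENSMUSG00000030895) 10 exons at chr7:105591613-105600137, both on the minus strand. Hp was at 4225 CPM in the library labelled control and 2570 in that labelled OGT-KO with no recovery, and at 4017 and 2300 after 7 days. Hpx was at 4702 and 4572 CPM with no recovery, and at 5003 and 4181 after 7 days. Hp was lower under the OGT-KO label by 1.64-fold (1.63 to 1.66) and 1.75-fold (1.73 to 1.77), and Hpx by 1.03-fold (1.02 to 1.04) and 1.20-fold (1.19 to 1.21). Neither gene passed 2-fold at either time. The share of Hpx in the reads of both genes was 52.7% and 55.5% in the libraries labelled control and 64.0% and 64.5% in those labelled OGT-KO. These transcripts share no window of 50 bases with another gene, so the shift in share is a difference within a library that scaling cannot move.

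Lcn2 encodes lipocalin 2, also named neutrophil gelatinase-associated lipocalin, which binds the iron carriers of bacteria and is made by injured epithelium, hepatocytes and neutrophils. The gene (ENSMUSG00000026822) has 6 exons on the minus strand at chr2:32384633-32388252. It was at 14.7 CPM in the library labelled control and 487 in that labelled OGT-KO with no recovery, and at 52.8 and 406 after 7 days. Lcn2 was the member that stood on the opposite side to Saa1, Saa2 and Crp, high under the OGT-KO label at both times. It was 33.2-fold higher with no recovery (29.6 to 37.2) and 7.70-fold higher after 7 days (7.22 to 8.21), and 99.8% and 95.5% of compared genes lay below it. Of the 8 neutrophil markers 6 were in the table. Their sum was 5.55 and 31.1 CPM with no recovery, and 2.35 and 46.8 after 7 days. The bile duct and progenitor sum was 53.9 and 1157 CPM, and 70.0 and 1469 CPM. Spp1 alone made up 977 and 1245 CPM of this sum in the libraries labelled OGT-KO. Both sums were higher in the same libraries as Lcn2, and the level of a marker sum does not give the Lcn2 level of those cells. Which cells the Lcn2 reads came from was not tested.

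Apcs and Crp encode the short pentraxins, ring-shaped proteins that bind exposed phospholipid and DNA and activate complement. Crp (ENSMUSG00000037942) lies on the plus strand at chr1:172698055-172833031 and Apcs (ENSMUSG00000026542) on the minus strand at chr1:172893961-172895041, each with 2 exons. Crp was at 327 CPM in the library labelled control and 48.7 in that labelled OGT-KO with no recovery, and at 363 and 81.1 after 7 days. It was 6.72-fold lower under the OGT-KO label with no recovery (6.31 to 7.17) and 4.48-fold lower after 7 days (4.25 to 4.72). Apcs was at 47.5 and 94.2 CPM with no recovery, and at 94.2 and 62.9 after 7 days. Its order turned around, since the library labelled OGT-KO was the higher at the first time and the lower at the second. Apcs was 1.98-fold higher under the OGT-KO label with no recovery (1.84 to 2.14) and 1.50-fold lower after 7 days (1.40 to 1.61). The starts of the pentraxin genes are 196986 bases apart, and Crp was lower and Apcs higher in the same library labelled OGT-KO with no recovery.

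Counted together, 1 of the 9 members past the filter was at least 2-fold higher under the OGT-KO label with no recovery (Lcn2), against 24.4% of compared genes, and 4 were at least 2-fold lower (Saa1, Saa2, Orm1 and Crp), against 5.69% of compared genes. After 7 days, when Ogt goes against the label, 1 was higher (Lcn2), against 22.9%, and 3 were lower (Saa1, Saa2 and Crp), against 4.27%. Saa3, outside the filter, was also past 2-fold after 7 days. Over all 10 members the median difference was -0.88 with no recovery and -0.83 after 7 days, on a scale where the median of compared genes was 0.51 and 0.48. When each library labelled OGT-KO was set against each labelled control, Lcn2 was at least 2-fold higher in every pair, against 17.3% of compared genes, and Saa1, Saa2 and Crp were at least 2-fold lower, against 3.35%.

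These sizes vary with how libraries are scaled. Under median-ratio scaling, which divides each library by its median ratio to the mean library, the median of compared genes moved by -0.70 to -0.19 with no recovery and by -0.66 to -0.18 after 7 days. Saa1 then differed by -4.56 and -4.77, Crp by -3.43 and -2.83 and Lcn2 by 4.26 and 2.24. Hp, at -0.72 and -0.80 in the deposited scaling, passed 2-fold at both times at -1.44 and -1.49. Apcs kept its turn, at 0.26 with no recovery and -1.25 after 7 days. Of the 9 members past the filter 1 was then higher and 6 were lower at each time, against 10.4% of compared genes higher and 15.4% lower with no recovery and 11.5% and 11.7% after 7 days. No member changed sign.

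**Figure D3:**
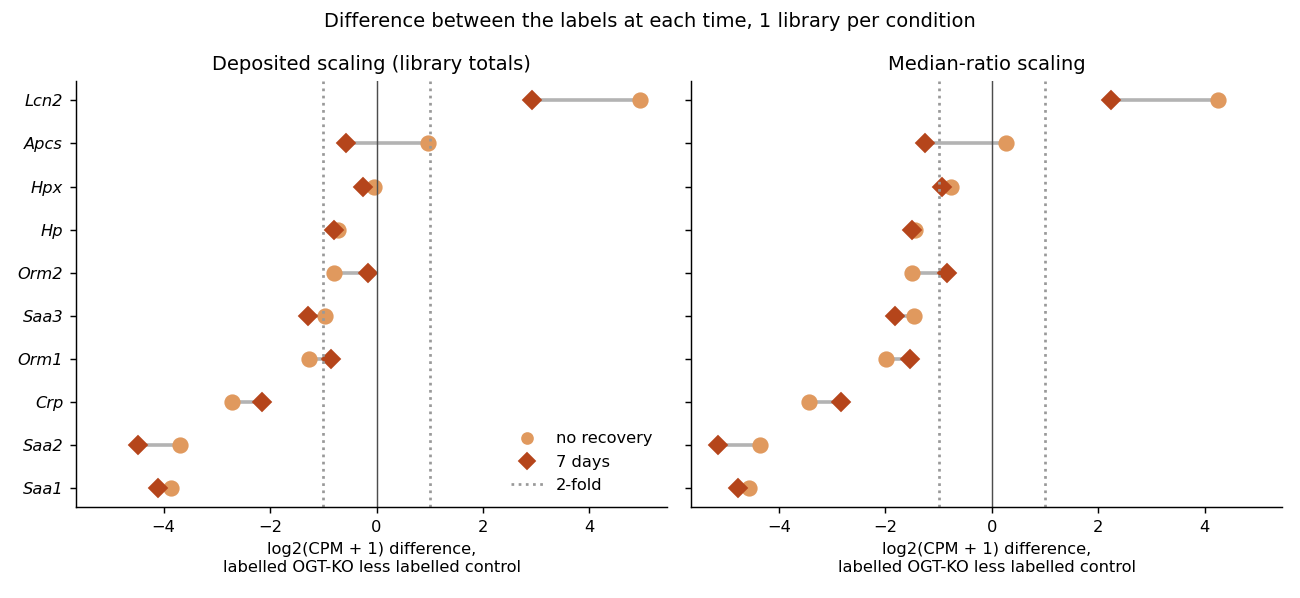
Difference of log2(CPM + 1) between the libraries labelled OGT-KO and control for each member with no recovery (circles) and after 7 days (diamonds), in the deposited scaling on the left and in median-ratio scaling on the right; dotted lines mark 2-fold. Lcn2 lies on the right and Saa1, Saa2 and Crp on the left in both panels, and Apcs crosses 0 between the times.

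Recovery was compared within each label. In the libraries labelled control, 2 of the 9 members past the filter were at least 2-fold higher after 7 days, against 0.245% of compared genes, and none was at least 2-fold lower, against 0.960%. These were Lcn2, 3.60-fold higher (3.17 to 4.09), and Saa2, 2.70-fold higher (2.59 to 2.81). Apcs, 1.98-fold higher (1.84 to 2.14), lay just under 2-fold and passed it with median-ratio scaling at 1.01 on the log2 scale. Saa1 was 1.39-fold higher (1.35 to 1.43), and Hp was the only member below its level with no recovery, 1.05-fold lower (1.04 to 1.06). Of all 10 members 9 were higher after 7 days, with a median of 0.34 against -0.05 for compared genes. In the same pair of libraries the summed macrophage markers were 2.69-fold lower and the summed neutrophil markers 2.36-fold lower after 7 days, while Lcn2 was higher.

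In the libraries labelled OGT-KO, no member was at least 2-fold higher or lower after 7 days, against 1.04% of compared genes higher and 0.435% lower. Orm2 was 1.79-fold higher (1.64 to 1.97), Crp 1.67-fold higher (1.55 to 1.80) and Saa2 1.60-fold higher (1.36 to 1.87). Lcn2 was 1.20-fold lower (1.17 to 1.23) and Apcs 1.50-fold lower (1.40 to 1.60). Of the 10 acute-phase members 4 lay below 0 and 6 above, with a median of 0.21. The sum of the 10 hepatocyte markers was 1.22 times its level with no recovery, at 67401 against 55386 CPM. Alb alone was at 51507 against 41362 CPM. Of these markers 6 were higher after 7 days and 4 lower, with a median of 0.16.

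The difference between the times was compared between the labels on the log2 scale, which is the label difference after 7 days less that with no recovery. A 2-fold difference was passed by 2 members of the 9, both lower, Lcn2 at -2.04 (counting interval -2.23 to -1.85) and Apcs at -1.55 (-1.69 to -1.40), against 0.647% of compared genes lower, and by none higher, against 2.09%. Lcn2 was lowest in the No Recovery library labelled control, which enters both differences. Saa2 was at -0.80 (-1.03 to -0.57), whereas Orm2 was at 0.62 (0.45 to 0.80), Crp at 0.57 (0.46 to 0.69) and Orm1 at 0.41 (0.37 to 0.46). Orm1, Orm2 and Crp thus differed less between the labels after 7 days, and Saa1 and Saa2 differed more.

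**Figure D4:**
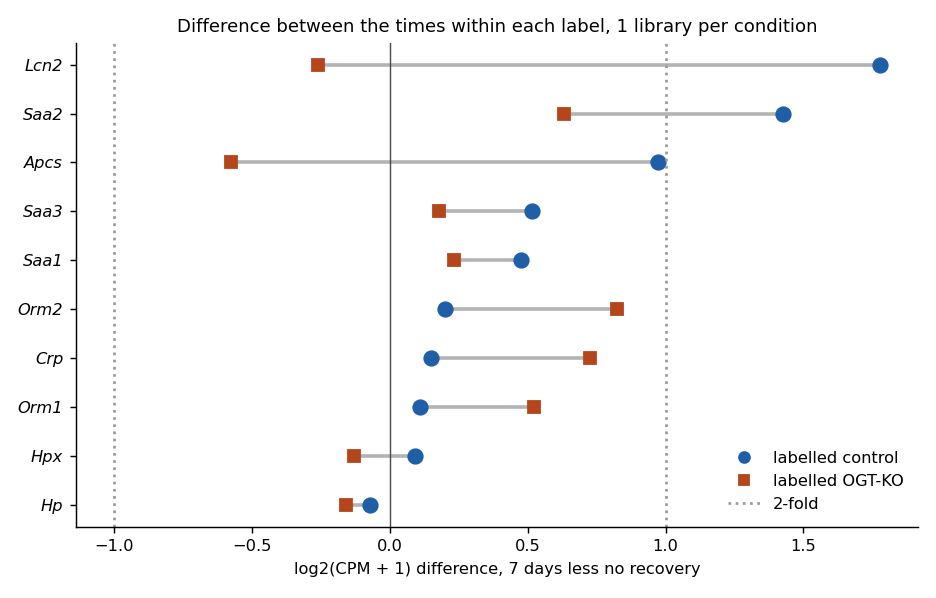
Difference of log2(CPM + 1) between 7 days and no recovery for each member in the libraries labelled control (circles) and labelled OGT-KO (squares); dotted lines mark 2-fold. Lcn2 and Apcs lie far to the right in control and left of 0 under the OGT-KO label, whereas Orm1, Orm2 and Crp lie further right under the OGT-KO label.

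Other genes of the acute-phase pathway were read from lists. Of 19 other positive acute-phase genes, 4 were at least 2-fold higher and 2 lower under the OGT-KO label with no recovery, against 24.4% and 5.69% of compared genes, and 3 were higher and 5 lower after 7 days, against 22.9% and 4.27%. With median-ratio scaling the counts were 2 higher and 8 lower with no recovery, against 10.42% and 15.35% of compared genes. After 7 days they were 3 higher and 10 lower, against 11.55% and 11.75%. With no recovery the balance of this list thus turns with the scaling, as does that of all compared genes. The list median was -0.09 and -0.42, below the median of compared genes at both times. Saa4, which encodes a constitutive amyloid A protein, differed by -1.85 and -2.33, on the side of Saa1 and Saa2. Cd14, a coreceptor for bacterial lipopolysaccharide, differed by 4.27 and 4.18, and Il1rn, the interleukin-1 receptor antagonist, by 3.79 and 3.46. Both are also made by myeloid cells. In the libraries labelled control Cd14 was at 1.55 and 1.25 CPM and Il1rn at 1.98 and 3.00 CPM, so that both genes, like Orm3, passed the filter only through the libraries where they were high, and the 3 genes made up all but 1 of the higher calls with no recovery and all of those after 7 days. During recovery in control 14 of the 19 genes were higher, with a median of 0.43, and 1 gene was past 2-fold, against 0.245% of compared genes higher. This was Serpina3n, a serine protease inhibitor and the gene nearest to Apcs in pattern, at 1.04. Under the OGT-KO label 7 of the 19 were higher, with a median of -0.06. The fibrinogen chains Fga, Fgb and Fgg, named after their values were seen, differed during recovery in control by 0.76, 0.73 and 0.74. Under the OGT-KO label they differed by 0.12, -0.02 and 0.01. Between the labels they differed by -0.84, -0.81 and -0.81 with no recovery and, past 2-fold, by -1.475, -1.560 and -1.537 after 7 days.

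Of 9 negative acute-phase genes none was at least 2-fold higher under the OGT-KO label at either time, against 24.4% and 22.9% of compared genes. With no recovery 3 were lower, against 5.69% of compared genes, and 2 after 7 days, against 4.27%. Under median-ratio scaling 6 were lower at each time, against 15.35% and 11.75%, and none was higher, against 10.42% and 11.55%. Apoa1 and Apoa2, the main proteins of high-density lipoprotein, differed by -1.60 and -1.97 and by -1.70 and -1.63. Serpina6, the corticosteroid carrier of plasma, differed by -2.68 with no recovery and -0.42 after 7 days. Rbp4, the retinol carrier, differed by -0.76 and -0.82. In the deposited scaling neither Rbp4 at either time nor Serpina6 after 7 days passed 2-fold. Both did so under median-ratio scaling, Rbp4 at -1.483 and -1.506 and Serpina6 after 7 days at -1.103.

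The cytokines that induce the response had few reads. Of 8 listed cytokines 4 were in the table and none passed the filter, and Il6 was not among the 4. Il1b had 18 reads in the library labelled control and 189 in that labelled OGT-KO with no recovery, and 15 and 126 after 7 days. Tnf had 3 and 75 reads, and 0 and 68. Lif had 1 and 206 reads, and 2 and 181, and Il1a had 72 and 187, and 31 and 127. Reads of these cytokines were thus more numerous in the libraries labelled OGT-KO, where Saa1, Saa2 and Crp were low and Lcn2 was high.

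Among 8 receptors of these cytokines, 7 passed the filter, of which 2 were at least 2-fold higher and 2 lower under the OGT-KO label with no recovery, against 24.4% and 5.69% of compared genes, and 1 was higher and 3 were lower after 7 days, against 22.9% and 4.27%. Osmr, the oncostatin M receptor, differed by 2.84 and 2.61, and passed the filter only through the libraries labelled OGT-KO, where it was high. Il1rap, the accessory chain of the interleukin-1 receptor, differed by -2.25 and -2.13, and Lifr, the receptor of leukemia inhibitory factor, by -2.21 and -2.10. Il6ra, the interleukin-6 receptor, differed by -0.70 and -1.22.

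Of 15 transcription factors and feedback genes, 3 were at least 2-fold higher and 1 lower under the OGT-KO label with no recovery, against 24.4% and 5.69% of compared genes, and 1 was higher and 1 lower after 7 days, against 22.9% and 4.27%. Cebpd, a C/EBP factor induced in the response that passed the filter only through the libraries labelled OGT-KO, differed by 1.43 and 0.99 and Nfkb1, a subunit of NF-kappaB, by 1.02 and 1.03. Hnf4a, a main hepatocyte factor, differed by -1.34 and -0.91 and Cebpa, the C/EBP factor of mature hepatocytes, by -0.995 and -1.07. With median-ratio scaling none of the 15 was higher past 2-fold at either time, against 10.42% and 11.55% of compared genes. At each time 3 were lower, against 15.35% and 11.75%. The counts of this list thus depend on the scaling, as do those of all compared genes.

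Of 12 receptors and clearance partners of the proteins, 6 passed the filter. Of these, 2 were at least 2-fold higher with no recovery and 3 after 7 days, against the 24.4% and 22.9% of compared genes given above. None was lower, against 5.69% and 4.27%. With median-ratio scaling 2 were higher at each time, against 10.42% and 11.55%, and none was lower, against 15.35% and 11.75%. Hmox1, the heme oxygenase that degrades heme, differed by 2.24 and 2.09. Cd163, the macrophage receptor for haptoglobin bound to hemoglobin, differed by 0.52 and 1.27. With median-ratio scaling these values were -0.16 and 0.65, so its 2-fold call after 7 days was not kept. Fcgr3 and Fcgr2b, receptors that bind pentraxins as well as antibody, differed by 2.65 and 3.08 and by 0.75 and 0.83. Fcgr3 passed the filter only through the libraries labelled OGT-KO, and with median-ratio scaling Fcgr2b differed by 0.04 and 0.16. Macrophage markers were higher in the same libraries, as given beside Saa3.

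**Figure D5:**
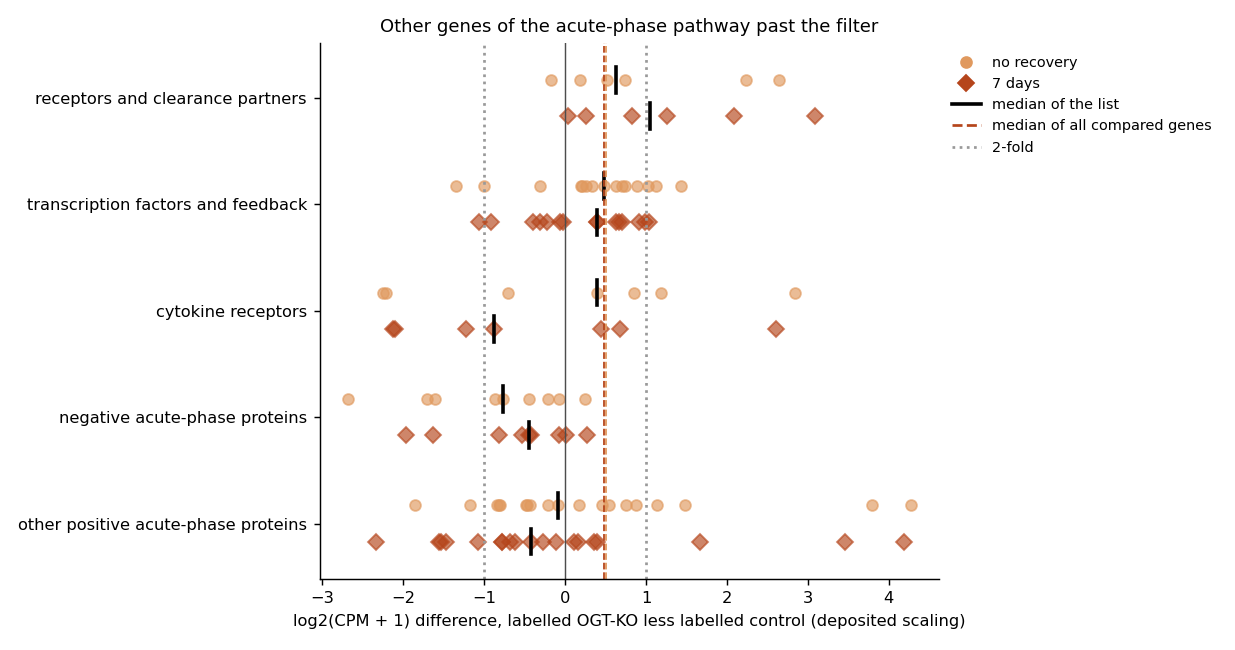
Difference of log2(CPM + 1) between the libraries labelled OGT-KO and control for each gene of 5 pathway lists past the filter, with no recovery (circles) and after 7 days (diamonds); black bars are list medians, dashed lines the median of compared genes and dotted lines 2-fold. Medians of the positive and negative acute-phase lists lie below those of all compared genes at both times.

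The genes most like the members were found by the distance between log2(CPM + 1) values over the 4 libraries, each centred on its own mean. Hp was nearest to Rbp4 at a distance of 0.035, and Orm1 to Aass and Hnf4a at 0.070 and 0.10. Apcs was nearest to Serpina3n at 0.21, which showed the same turn with 342, 577, 705 and 439 CPM in the libraries labelled control and OGT-KO with no recovery and control and OGT-KO after 7 days. Saa1 was nearest to Ugt2b1 and Cyp2d40 at 0.66 and 0.72, and Saa2 to Nudt7 at 1.14. Lcn2 was nearest to Osbpl3 and Ckap2 at 0.83 and 0.92. Osbpl3 and Ckap2 passed the filter only through the libraries labelled OGT-KO. Hpx lay at 0.026 from Heca and Orm2 at 0.057 from Sned1. The distance grows with the size of the differences, which were large for Saa1, Saa2 and Lcn2. Nearest distances of other genes with such differences were not computed, so the larger distances are not read as particular to these members.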

How the data were processed

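The study measured bulk mRNA from 4 pools of mouse liver, and the pools were grouped by the labels. The authors deposited 1 table of CPM for 13903 genes, named for DESeq2 normalization, whose 4 columns each sum to 1000000; all were used. STAR, DESeq2 and GRCm39 are named in the submitters' processing notes, and the counter and versions are not given in the sources used here. Every value was a whole multiple of the CPM of 1 read (100.0% within 0.01 read), so whole reads were recovered. The depth puts 3 reads at 0.131 to 0.150 CPM.

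Differences were taken on log2(CPM + 1), where low genes appear to change less than they do, and counted at 2-fold among the 8963 genes averaging 10 CPM or more; 9 of the 10 members passed. Shares have 95% Clopper-Pearson intervals and ratios exact conditional ones, which cover counting error only. Members and lists were chosen with earlier results of these data known. Other pathway genes named are the up to 4 per list with the largest mean label difference in size, and neighbours are from the 2 nearest per member (those of Crp are not reported here); the fibrinogen genes were named after their values were seen. Transcripts and lengths came from GENCODE M21 (GRCm38) and promoters from RefSeq (GRCm38.p6), a build other than that of the notes, so no coordinate of the data was used. The steps were tested on simulated reads with counting noise alone. Alternatives were pseudocounts, filters, scalings, a 4-fold threshold and an exact binomial test with Benjamini-Hochberg adjustment. Python 3.11, numpy 2.4.6, pandas 2.3.3 and scipy 1.17.1 were used.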

Additional observations from a re-analysis of the deposited data

Results flagged for a closer look

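In 3 members the libraries of the 2 compared groups moved in opposite directions, and none of these differences was tested, since each group is 1 library. The rule asked only that the counting intervals of both ratios lie on opposite sides of 1. How many of all compared genes meet it was not counted, so the flag is not read as particular to these members. Apcs was higher under the OGT-KO label with no recovery and lower after 7 days, and its difference of log2 differences was -1.55. The same -1.55 arises when recovery is read within each label, where Apcs was higher after 7 days in control and lower under the OGT-KO label. Lcn2 was higher after 7 days in control and lower under the OGT-KO label, a difference of -2.04. Hpx did the same at a small size, 1.06-fold higher in control and 1.09-fold lower under the OGT-KO label, with a difference of -0.22.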

How the results depend on the processing

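No paired analysis was possible because the labels carry no replicate numbers and each condition is 1 library; for the same reason no replicate could be left out. The count of members called between the labels after 7 days was 4 in the deposited scaling and 7 (1 higher, 6 lower) with upper-quartile and with median-ratio scaling, in which Orm1, Hp and Apcs joined the lower ones. With no recovery it was 5 (1 higher, 4 lower) and 7 (1 higher, 6 lower) with both. The pathway lists held 19, 9, 7, 15 and 6 genes past the filter, and no cytokine passed it. Their genes called after 7 days went from 19 (8 higher, 11 lower) to 29 (6 higher, 23 lower) with median-ratio scaling. With no recovery they went from 19 (11 higher, 8 lower) to 25 (5 higher, 20 lower) with median-ratio scaling and to 21 (6 higher, 15 lower) with upper-quartile scaling. At a 4-fold threshold 0 members were called for recovery in control, against 2, and 1 for the difference between the labels, against 2. These thresholds and scalings change the counts by their construction, and the shares of all compared genes move too. After 7 days 22.9% of compared genes were higher and 4.27% lower in the deposited scaling. The shares were 13.63% and 8.156% with upper-quartile and 11.55% and 11.75% with median-ratio scaling. With no recovery they were 24.4% and 5.69%, then 13.60% and 10.77%, then 10.42% and 15.35%. The shares at 4-fold were not computed. Member differences past 2-fold, with Saa3 after 7 days counted although it is outside the filter, kept their sign in 70 of 70 recomputed values. Of the values of other member differences, 0 of 180 changed sign. These values include those with other pseudocounts, which cannot change the sign of a difference between 2 libraries. Only the scalings could do so there. The exact binomial test gave an adjusted p under 0.05 to 10, 10, 10 and 9 members in the 4 comparisons and to 12150, 11969, 4090 and 6544 of 13903 genes, and removed no 2-fold call; it compares libraries and not conditions. At this depth every 2-fold call past the filter passed that test, for members and for all other compared genes, so it adds no support to the calls. Depth limits Saa3, the neutrophil markers and the cytokines in the libraries labelled control. Variation among mice cannot be seen in pooled RNA.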
